A study of Mus musculus with 12 samples.

Results

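The RNA of 33 genes known for their expression in long-term haemopoietic stem cells (HSC) was followed in sorted murine bone marrow (BM) cells with BCR::ABL1 switched on or kept off, BCR::ABL1 being the fusion oncogene of chronic myeloid leukaemia (CML). The genes were chosen by symbol and found by Ensembl identifier, and all 33 were present among the 56748 identifiers counted in each library. The cells were donor-derived CD45.2+Lin-Sca+Kit+ (LSK) cells, the fraction of mouse BM that holds HSC together with multipotent progenitors. Bulk RNA-seq of 12 LSK libraries was available, 6 per group, and what follows is the comparison of these groups gene by gene.

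In both groups the cells carried the SCLtTA and BCR-ABL transgenes. In this double transgenic (DTG) mouse a tetracycline-controlled transactivator is driven by regulatory sequence of Scl (Tal1), which is itself a stem cell gene. Human BCR::ABL1 stays silent while tetracycline (TET) is given. BM from a frozen pool of DTG donors (CD45.2) was transplanted into irradiated B6.SJL recipients (CD45.1). The paper describes both the donors and the recipients as being of both sexes. The recipients were 8 to 12 weeks old and had received 2 doses of 4.25 Gy, 3 h apart, and TET was given for the first 2 weeks. The CTRL group was then kept on TET, so that BCR::ABL1 remained off (n = 6 libraries). The CML 2wk group had TET removed for 2 weeks, so that BCR::ABL1 was on (n = 6 libraries). Because the donor cells were a pool, libraries represent recipients and not separate donors, and p-values describe the spread between such libraries. The human transgene was not counted, so the switch itself could not be checked in these values, and in bulk RNA fewer cells of a type cannot be told apart from less RNA per cell.

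Long-term HSC sit at the top of blood formation and divide rarely. Their RNA is marked by transcription factors that keep the undifferentiated state, by surface proteins used to sort them, and by a set of genes shared with the vascular endothelium, from which HSC arise in the embryo. As HSC give rise to multipotent progenitors these genes are turned down, while others, such as Cd48, are turned up. Members of every kind were among the 33.

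Between 22804754 and 41832868 reads were counted on genes per CTRL library and between 16150817 and 25070105 per CML 2wk library, so that 3 counts correspond to at most 0.186 CPM (counts scaled to a library of 1000000). Mitochondrial genes took 0.816 to 1.29% of counts in CTRL and 2.26 to 2.97% in CML 2wk, with no overlap, and their part in the differences was not tested. Spread between libraries was wider in CML 2wk, where the biological coefficient of variation (the relative SD beyond counting error) reached 32.6%, and was 10.8% in CTRL. CML 2wk replicates 2 and 4 stood apart by their stromal transcripts, as given with the genes concerned, and where these libraries decided a call or moved it by over 1.5 times the value without them is given. The labels name all CTRL mice male and all CML 2wk mice female, so sex as labelled and BCR::ABL1 cannot be told apart. The sorted cells were donor-derived, so their sex-linked transcripts follow the donors and do not test a label of the recipients. The female transcript Xist was at 3794 to 4425 CPM in CTRL. The Y-linked Ddx3y, Uty, Kdm5d and Eif2s3y were at most 0.588, 0.465, 0.563 and 0.686 CPM there. The male label therefore does not describe the RNA of the sorted CTRL cells. Whether the labels name the recipients could not be settled here. In CML 2wk, Xist was at 2183 to 3502 CPM and Ddx3y reached 8.64 CPM in replicate 2. Uty, Kdm5d and Eif2s3y reached 6.08, 3.94 and 4.11 CPM in that group. The library numbers also split by group: those of replicates 1 to 5 fell into separate series for CTRL and CML 2wk, and only the libraries numbered 6 shared a series.

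Most of the stem cell genes were lower in the cells with BCR::ABL1 on. Of the 33 genes, 32 passed the filter on low counts and were tested, and 24 were lower in CML 2wk, 3 were higher and 5 were not called at an adjusted p of 0.05. Over all 18438 genes tested, 59.5% were called, 29.0% lower and 30.6% higher, so the 75% of the stem cell genes that fell stood against a background of 29.0%. The median log2 fold change was −0.99 over the 32 genes and 0.07 over all genes tested. For 19 of the 32 genes every CML 2wk library lay below every CTRL library, which held for 20.6% of all genes tested, and for 3 genes every CML 2wk library lay above, against 17.0% of all genes. A fall of at least 2-fold was called for 16 of the 32 genes and for 5.78% of all genes tested. Since the genes were chosen with earlier results of these data known, these shares are descriptive.

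**Figure D1:**
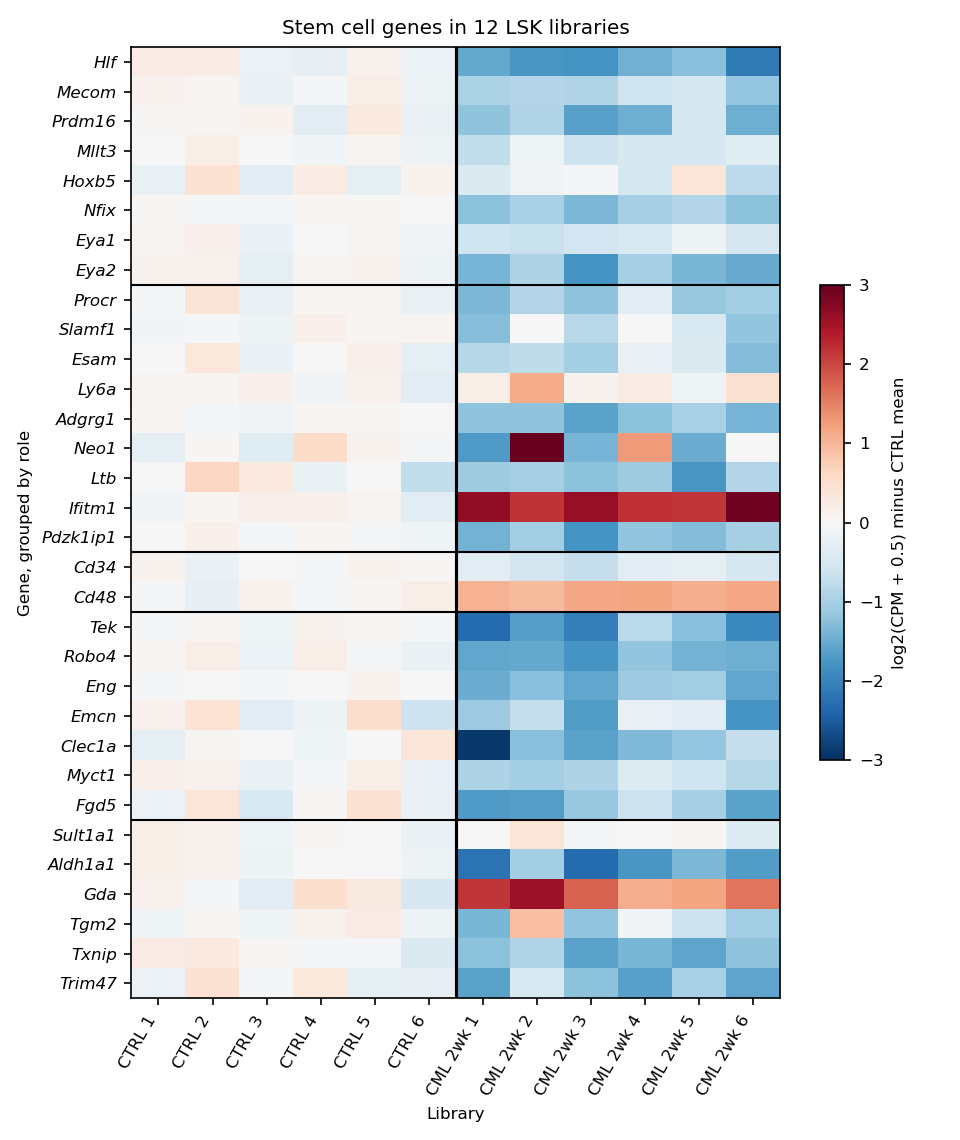
Heat map of the 32 tested genes (rows, in the order of their roles, separated by lines) in the 12 libraries (columns). Colour gives log2(CPM + 0.5) minus the CTRL mean, with blue lower and red higher and with the scale ending at 3 in each direction. The CML 2wk columns are mostly blue for the 24 genes called lower. Cells near the CTRL mean include Slamf1 in replicates 2 and 4, Mllt3 in replicate 2, Eya1 in replicate 5 and Esam in replicate 4. The CML 2wk columns are red throughout for Ifitm1, Cd48 and Gda.

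Only CML 2wk replicate 6 and CTRL replicate 6 share a number series. Between these 2 libraries, which also entered the calls, the median log2 ratio was −0.95 over the 32 genes and 0.00 over all genes tested. With the library number series as a term in the fit, these 2 libraries alone gave the change, 1 per group, and the spread was borrowed from the other series on the assumption that they vary alike. In that fit 10 genes were lower and 3 higher, against 13.4% and 11.8% of all genes tested, and 31 of the 32 genes had the same direction as over all libraries, as did 84.0% of all genes tested. The genes that were lower in this fit were Hlf, Mecom, Nfix, Eya2, Esam, Adgrg1, Tek, Robo4, Eng and Aldh1a1.

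The transcription and chromatin regulators fell almost as a whole, with 7 of 8 genes lower and none higher. Shares over all genes tested were 29.0% lower and 30.6% higher. Hlf, a PAR bZIP transcription factor that marks HSC and is needed for their maintenance, had the largest fall of the 8. Its RNA was at 292 to 408 CPM in CTRL (median 343) and at 79.9 to 145 CPM in CML 2wk (median 111). The groups did not overlap, and the change was −1.64 ± 0.14 on the log2 scale (standard error, SE), or 3.11-fold lower (adjusted p = 2.35e-07). Eya2, a protein phosphatase and transcriptional coactivator, went from 25.5 to 34.3 CPM (median 33.2) to 8.7 to 16.0 CPM (median 11.6), again without overlap, with a log2 change of −1.34 ± 0.14 (adjusted p = 1.63e-06). Its relative Eya1 fell by much less, with 51.9 to 66.3 CPM in CTRL (median 60.9), 37.2 to 53.6 CPM in CML 2wk (median 41.1) and a log2 change of −0.49 ± 0.09 (adjusted p = 0.000263). CML 2wk replicate 5 lay inside the CTRL range for Eya1.

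Nfix, a nuclear factor I protein that helps HSC survive transplantation, was among the tightest measurements of the set. CTRL libraries lay between 173 and 186 CPM (median 180) and CML 2wk libraries between 69.9 and 96.7 CPM (median 83.1). The groups were far apart, with a log2 change of −1.10 ± 0.08 (adjusted p = 5.83e-08). Prdm16, a zinc finger methyltransferase family member required for HSC upkeep, was at 21.7 to 33.5 CPM in CTRL (median 28.5) and at 8.39 to 18.9 CPM in CML 2wk (median 10.6), a log2 change of −1.18 ± 0.18 (adjusted p = 6.18e-05). Mecom, which encodes Evi1 and belongs to the same family, fell less, from a median of 99.5 CPM (85.1 to 113) to a median of 52.8 CPM (43.6 to 68.5), a log2 change of −0.83 ± 0.11 (adjusted p = 1.24e-05). For both genes every CML 2wk library was below every CTRL library.

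Mllt3 (AF9), a reader of acylated histones in the super elongation complex that supports HSC self-renewal, fell by 0.47 ± 0.09 on the log2 scale (adjusted p = 0.000572). CTRL libraries were at 48.2 to 61.6 CPM (median 53.0) and CML 2wk libraries at 31.8 to 48.7 CPM (median 38.0), and CML 2wk replicate 2 lay just inside the CTRL range. Hoxb5, a homeobox gene used as a reporter of long-term HSC, was scarce in both groups. It was at 1.35 to 2.62 CPM in CTRL (median 1.73) and 0.839 to 2.48 CPM in CML 2wk (median 1.41), the groups overlapped, and the log2 change of −0.30 ± 0.27 was not called (adjusted p = 0.362).

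Among the genes listed as stem cell surface markers, not all of which are used to sort HSC, 6 of 9 fell, 1 rose and 2 were not called. These counts stand beside 29.0% of all genes tested lower and 30.6% higher. Procr (EPCR, CD201), the endothelial protein C receptor, was lower without overlap. CTRL libraries lay at 12.6 to 19.5 CPM (median 14.7) and CML 2wk libraries at 5.55 to 11.9 CPM (median 6.77), with a log2 change of −1.0 ± 0.18 (adjusted p = 0.000197). The 11.9 CPM of CML 2wk replicate 4 came closest to CTRL, and the other 5 libraries were at or below 7.79 CPM. Adgrg1 (GPR56), an adhesion receptor of HSC, was the most abundant of the 33 genes per length in CTRL, at 274 CPM per kb of exon. In CPM it was at 1385 to 1537 in CTRL (median 1508) and at 491 to 758 in CML 2wk (median 640), a log2 change of −1.26 ± 0.09 (adjusted p = 6.98e-08).

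Esam, an endothelial cell adhesion molecule also present on HSC, was at 15.4 to 23.2 CPM in CTRL (median 18.4) and 7.25 to 15.7 CPM in CML 2wk (median 10.3). CML 2wk replicate 4 was inside the CTRL range, and the log2 change was −0.76 ± 0.17 (adjusted p = 0.0014). Pdzk1ip1 (MAP17), a small membrane protein, and Ltb, the membrane-bound lymphotoxin beta, both separated the groups fully. Pdzk1ip1 was at 12.1 to 15.0 CPM (median 13.3) against 3.55 to 6.51 CPM (median 5.41), a log2 change of −1.34 ± 0.14 (adjusted p = 1.46e-06). Ltb was at 9.17 to 24.3 CPM (median 15.7) against 4.31 to 8.29 CPM (median 7.21), a log2 change of −1.25 ± 0.21 (adjusted p = 0.00013). For Ltb the libraries numbered 6 were close, at 9.17 and 8.29 CPM, and with the library number series as a term its log2 change was −0.15 (adjusted p = 0.852).

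Slamf1 (CD150) and Cd48 encode receptors of the SLAM family that are read together when HSC are sorted: HSC carry CD150 and lack CD48, while many multipotent progenitors carry CD48. The genes are neighbours on mouse chromosome 1, their starts 85140 bases apart in GRCm38.p6, and their RNAs moved in opposite directions. The 250 bases before each start, from RefSeq, are shown for this pair on the plus strand of GRCm38.p6 (chr1:171766882-171767131 and chr1:171681742-171681991), with matches to the ETS core AGGAAG and the RUNX core TGTGGT, searched on both strands, in capitals.
Slamf1: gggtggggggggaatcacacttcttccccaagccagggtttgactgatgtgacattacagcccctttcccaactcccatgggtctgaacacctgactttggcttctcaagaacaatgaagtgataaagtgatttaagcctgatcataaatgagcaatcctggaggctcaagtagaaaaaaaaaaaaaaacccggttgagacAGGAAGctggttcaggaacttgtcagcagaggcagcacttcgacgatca
Cd48: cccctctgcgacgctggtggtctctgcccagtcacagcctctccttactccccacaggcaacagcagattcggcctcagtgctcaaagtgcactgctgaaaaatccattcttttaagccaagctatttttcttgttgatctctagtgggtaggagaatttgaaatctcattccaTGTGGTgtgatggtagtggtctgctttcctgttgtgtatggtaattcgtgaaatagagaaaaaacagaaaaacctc
The Slamf1 window held 1 AGGAAG and the Cd48 window 1 TGTGGT, letters that stood in 29.5% and 14.0% of all 32851 promoter windows of this length.

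Cd48 was at 83.0 to 112 CPM in CTRL (median 98.2) and at 190 to 221 CPM in CML 2wk (median 214). Every CML 2wk library was above every CTRL library, and the gene rose by 1.10 ± 0.07 on the log2 scale, or 2.14-fold (adjusted p = 4.27e-08). Slamf1 was lower, with 9.35 to 11.6 CPM in CTRL (median 10.4) and 4.02 to 10.4 CPM in CML 2wk (median 6.51), a log2 change of −0.57 ± 0.22 (adjusted p = 0.0377). That call was near the threshold and was lost in 14 of 24 alternative settings. CML 2wk replicates 2 and 4 lay inside the CTRL range and the other 4 CML 2wk libraries below it, the adjusted p ranged from 0.00585 to 0.0771 when each library was left out in turn, and without replicates 2 and 4 the log2 change was −0.97 (adjusted p = 0.000141). Within a library, Cd48 CPM divided by Slamf1 CPM, a ratio that does not depend on scaling between libraries, was 8.07 to 11.3 in CTRL (median 9.58) and 18.2 to 51.5 in CML 2wk (median 33.6). The same ratio to Procr was 4.26 to 8.80 in CTRL (median 6.53) and 18.6 to 36.2 in CML 2wk (median 31.8). Neither ratio overlapped between the groups, but both restate the values of the single genes and add no separate result. For Procr the separation had to follow, since Cd48 and Procr each separated the groups in opposite directions.

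Cd34, a sialomucin that is low on long-term HSC and higher on later multipotent cells, did not move with Cd48. It was at 654 to 807 CPM in CTRL (median 756) and 461 to 625 CPM in CML 2wk (median 557), without overlap, and fell by 0.44 ± 0.08 on the log2 scale (adjusted p = 0.000347).

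Ly6a (Sca-1), a gate marker of LSK cells as well as a stem cell gene, was not called. It was at 27.2 to 38.3 CPM in CTRL (median 35.7) and 31.4 to 74.1 CPM in CML 2wk (median 39.9), a log2 change of 0.38 ± 0.17 (adjusted p = 0.066). That value was near the threshold, and Ly6a was called higher in 4 of 24 alternative settings. The highest value, 74.1 CPM in CML 2wk replicate 2, stood apart from the next, 46.9 CPM, and without replicates 2 and 4 the log2 change was 0.15. The other gate marker, Kit, the stem cell factor receptor, fell by 0.86 ± 0.10 on the log2 scale (adjusted p = 4.68e-06), from 681 to 800 CPM in CTRL to 323 to 522 CPM in CML 2wk. The cells had been sorted on both proteins.

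Ifitm1, an interferon-induced membrane protein that restricts viruses and is expressed in HSC, had the largest rise of the 33 genes. Its RNA was at 48.8 to 68.7 CPM in CTRL (median 64.7) and 277 to 470 CPM in CML 2wk (median 332). The lowest CML 2wk library was several times the highest CTRL library, and the log2 change was 2.48 ± 0.14, or 5.58-fold (adjusted p = 1.71e-08). Per length Ifitm1 went from the fifth place of the set in CTRL (56.9 CPM per kb) to the first in CML 2wk (317 CPM per kb). Of 15 other interferon-induced genes, 11 fell, 2 rose and 2 were not called, with a median log2 change of −1.08. Over all genes tested 29.0% were lower and 30.6% higher. The 2 that rose were Ifitm2, by 0.47 ± 0.09 (adjusted p = 0.000355), and Ifitm3, by 0.33 ± 0.12 (adjusted p = 0.0271, but 0.0673 without CTRL replicate 6 and 0.0628 without CML 2wk replicate 6), relatives of Ifitm1 that act against viruses at membranes. The largest falls were in the antiviral genes Ifi44, with a log2 change of −2.48 ± 0.28 (adjusted p = 3.09e-06), and Mx1, with −2.45 ± 0.19 (adjusted p = 1.54e-07).

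Neo1 (neogenin), a receptor of netrins and repulsive guidance molecules found on quiescent HSC, was decided by single libraries. CTRL libraries were at 0.898 to 2.15 CPM (median 1.30). CML 2wk libraries were at 0.0567, 17.0, 0.184, 3.91, 0.15 and 1.28 CPM for replicates 1 to 6. Replicates 2 and 4 were above every CTRL library and replicates 1, 3 and 5 below every one. The log2 change over all libraries was 1.48 ± 0.92 and was not called (adjusted p = 0.179), while without replicates 2 and 4 it was −1.69 (adjusted p = 0.0173). In the same 2 libraries the summed level of 12 stromal markers was 984 and 390 CPM, against 65.6 to 86.7 CPM in the other 4 CML 2wk libraries and 93.2 to 113 CPM in CTRL. The collagen gene Col3a1 and the matrix gene Sparc were called higher through these 2 libraries, with log2 changes of 5.58 ± 1.69 and 4.74 ± 1.26 that became −3.15 and −0.10 without them. The part of these transcripts in the Neo1 value was not tested.

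**Figure D2:**
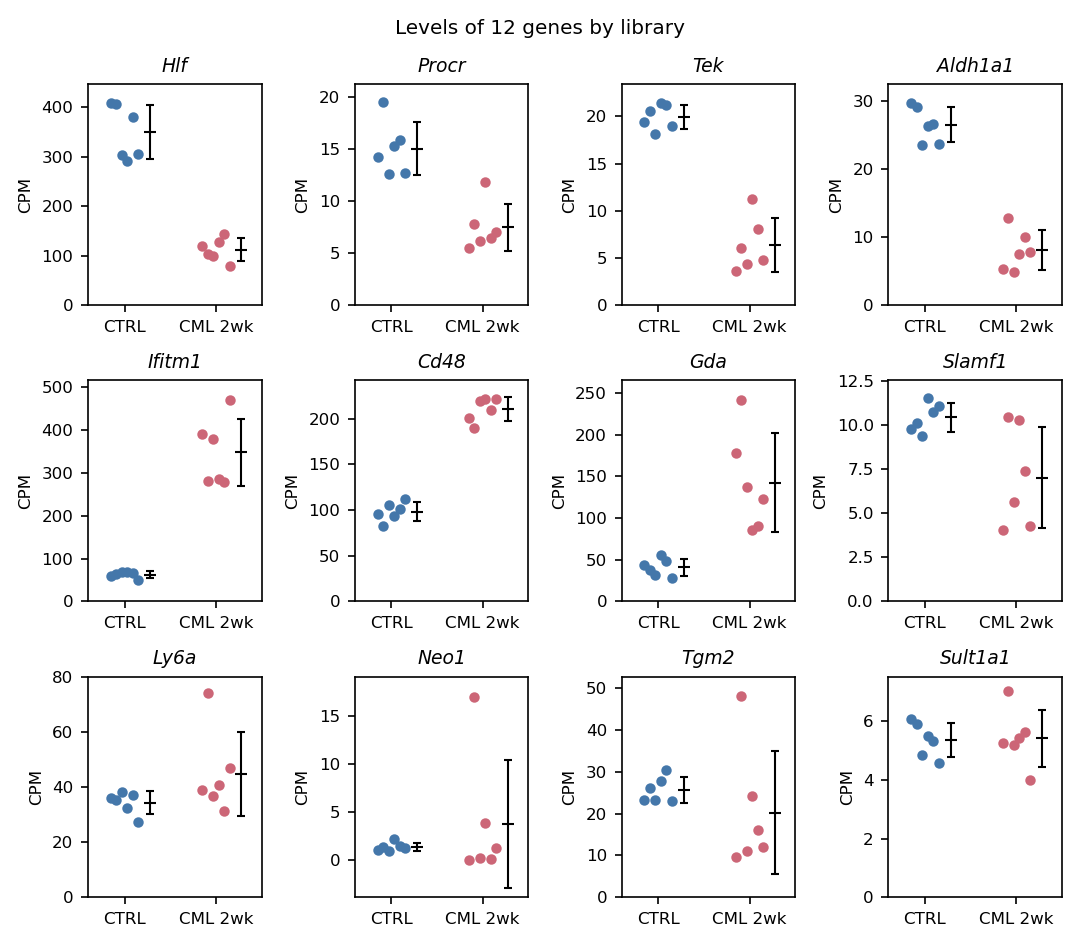
CPM of 12 of the genes in each library (points), with the group mean and SD beside them (bar and whiskers, n = 6 per group) and each panel on its own linear axis from 0 or just below it. Hlf, Procr, Tek and Aldh1a1 lie lower and Ifitm1, Cd48 and Gda higher in CML 2wk without overlap, while in Slamf1, Ly6a, Neo1 and Tgm2 CML 2wk replicate 2 is the highest of its group.

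Genes shared with the endothelium fell without exception among those that could be tested, 7 of 7, with a median log2 change of −1.34. The share lower over all genes tested was 29.0%. Tek (Tie2), the receptor of angiopoietins, was at 18.1 to 21.4 CPM in CTRL (median 20) and at 3.63 to 11.2 CPM in CML 2wk (median 5.43). Its log2 change was −1.64 ± 0.22, or 3.12-fold lower (adjusted p = 1.71e-05). CML 2wk replicate 4 had the highest value of its group here too, and without replicates 2 and 4 the log2 change was −1.92. Robo4, a guidance receptor of vessels that helps HSC lodge in the marrow, and Eng (endoglin, CD105), a coreceptor of the TGF-beta family, were less scattered. Robo4 was at 19.9 to 26.3 CPM (median 23.0) against 6.37 to 9.82 CPM (median 7.83), a log2 change of −1.54 ± 0.12 (adjusted p = 9.53e-08). Eng was at 123 to 139 CPM (median 127) against 43.1 to 61.5 CPM (median 49.2), a log2 change of −1.33 ± 0.09 (adjusted p = 6.55e-08).

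Promoter windows were found for 6 of the 8 genes of this group, and 4 of these genes, Robo4, Eng, Emcn and Fgd5, held the ETS core AGGAAG on either strand. Counted by gene, it stood in 9 of the 25 members with a window. Counted by window, it stood in 37.5% of the 32 member windows and 29.5% of all windows, some genes having several windows. Those of Robo4 and Eng are given as the most evenly lowered genes, from RefSeq GRCm38.p6, plus strand (chr9:37401722-37401971 and chr2:32646345-32646594), with AGGAAG or its reverse complement in capitals.
Robo4: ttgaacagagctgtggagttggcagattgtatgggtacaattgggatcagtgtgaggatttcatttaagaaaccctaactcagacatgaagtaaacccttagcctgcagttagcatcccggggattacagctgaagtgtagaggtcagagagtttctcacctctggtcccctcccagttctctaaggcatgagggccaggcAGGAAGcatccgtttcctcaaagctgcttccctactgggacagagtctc
Eng: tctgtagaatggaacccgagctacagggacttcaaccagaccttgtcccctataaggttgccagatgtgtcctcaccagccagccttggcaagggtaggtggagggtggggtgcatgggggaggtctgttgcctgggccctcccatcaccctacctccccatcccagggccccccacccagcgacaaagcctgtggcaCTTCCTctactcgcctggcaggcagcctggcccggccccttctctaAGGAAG
The matches are a description of the letters. ETS factors themselves include Erg, an HSC regulator, which fell by 1.07 ± 0.10 on the log2 scale (adjusted p = 6.85e-07). Erg was named after its value was seen, and a link to the genes with the core was not tested. The core also stood in the window of Sult1a1, whose RNA was not called.

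Fgd5, a guanine nucleotide exchange factor whose reporter marks HSC, was at 10.8 to 20.3 CPM in CTRL (median 14.3) and 4.31 to 9.33 CPM in CML 2wk (median 5.54), a log2 change of −1.34 ± 0.22 (adjusted p = 8.94e-05). Myct1, an endothelial and HSC membrane protein, was at 66.1 to 87.4 CPM (median 79.4) against 37.9 to 57.9 CPM (median 41.2), a log2 change of −0.78 ± 0.11 (adjusted p = 2.57e-05). Neither gene overlapped between groups. Clec1a, a C-type lectin, was at 7.42 to 11.9 CPM in CTRL (median 9.09) and 0.793 to 5.48 CPM in CML 2wk (median 3.46), a log2 change of −1.48 ± 0.30 (adjusted p = 0.000603). Emcn (endomucin), a sialoglycoprotein, varied most of this group within CTRL, at 6.23 to 14.4 CPM (median 9.73), and was at 2.52 to 8.25 CPM in CML 2wk (median 5.04). CML 2wk replicates 4 and 5 lay inside the CTRL range, and the log2 change was −0.97 ± 0.30 (adjusted p = 0.0121). Ramp2, a coreceptor that turns Calcrl into the adrenomedullin receptor, was at 0.187 to 0.443 CPM in CTRL and 0.109 to 0.735 CPM in CML 2wk, did not pass the filter, and no change could be read from it. Calcrl itself was at 254 ± 14.4 CPM (SD, n = 6) in CTRL and 242 ± 34.3 CPM (SD, n = 6) in CML 2wk and was not called (adjusted p = 0.514).

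Markers of endothelial cells themselves were often highest in CML 2wk replicate 2. Of 12 endothelial markers, 1 fell, 2 rose and 5 of the 8 tested were not called. Calls over all genes tested were 29.0% lower and 30.6% higher. Among the 12 markers, 7 averaged under 1 CPM in CTRL and 7 had their highest value in CML 2wk replicate 2. Cdh5, which defines vascular endothelium, was at most 0.595 CPM in CTRL and reached 6.89 CPM in CML 2wk replicate 2 and 1.63 CPM in replicate 4, Ptprb was at most 0.317 CPM in CTRL and reached 9.63 CPM in replicate 2, and Sox17 was at most 0.0543 CPM in any library. The part of such transcripts in the values of the genes shared with endothelium was not tested, and without replicates 2 and 4 the 7 of those genes that were tested were called lower as well. The summed level of the 12 was 184 to 217 CPM in CTRL and 141 to 196 CPM in CML 2wk and came mostly from Pecam1 (120 ± 12.5 and 116 ± 7.68 CPM, SD, n = 6 each, not called) and Tie1, both of which HSC also express. Tie1, the partner receptor of Tek, fell by 1.88 ± 0.18 on the log2 scale (adjusted p = 7.2e-07). The 2 that rose were the VEGF receptor Flt1, with a log2 change of 2.41 ± 0.43 (adjusted p = 0.000223) that was 1.70 without CML 2wk replicate 2, and the fatty acid binding protein Fabp4, with 1.58 ± 0.56 (adjusted p = 0.0242), a call that was lost without CML 2wk replicate 6 (1.08, adjusted p = 0.0907), CTRL replicate 4 (adjusted p = 0.056) or CTRL replicate 6 (adjusted p = 0.0519), and without CML 2wk replicates 2 and 4 together (1.41, adjusted p = 0.0589).

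The enzymes and cytoplasmic proteins went in different directions, with 3 of 6 lower, 1 higher and 2 not called. With 29.0% of all genes tested lower and 30.6% higher, counts over 6 genes say little. Aldh1a1, an aldehyde dehydrogenase that makes retinoic acid, had the largest fall of the 33 genes over all 12 libraries, although without CML 2wk replicates 2 and 4 it was at −1.90 and Tek at −1.92 on the log2 scale. It was at 23.5 to 29.6 CPM in CTRL (median 26.5) and 4.96 to 12.8 CPM in CML 2wk (median 7.69), a log2 change of −1.70 ± 0.19, or 3.26-fold lower (adjusted p = 3.47e-06). Trim47, a RING-type ubiquitin ligase family member, was at 14.3 to 23.7 CPM (median 16.1) against 5.26 to 12.6 CPM (median 6.29), a log2 change of −1.26 ± 0.22 (adjusted p = 0.00019). In both genes CML 2wk replicate 2 had the highest value of its group, yet below every CTRL library.

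Txnip, the thioredoxin-interacting protein, restrains thioredoxin and glucose uptake and is linked to HSC quiescence. It was the second most abundant of the 33 genes per length in CTRL (145 CPM per kb) and was at 329 to 547 CPM there (median 444). In CML 2wk it was at 146 to 241 CPM (median 183), without overlap, a log2 change of −1.31 ± 0.14 (adjusted p = 1.62e-06). With the library number series as a term the log2 change of Txnip was smaller, at −0.76, and was not called. Txnip is a textbook target of the glucose-responsive factors of the Mlxip family, which bind a carbohydrate response element made of a pair of E-box-like sequences. The 250 bases before its start, from RefSeq GRCm38.p6, plus strand (chr3:96557707-96557956), are shown with the match to 2 copies of CACGNG with 5 bases between them, searched on both strands, in capitals.
Txnip: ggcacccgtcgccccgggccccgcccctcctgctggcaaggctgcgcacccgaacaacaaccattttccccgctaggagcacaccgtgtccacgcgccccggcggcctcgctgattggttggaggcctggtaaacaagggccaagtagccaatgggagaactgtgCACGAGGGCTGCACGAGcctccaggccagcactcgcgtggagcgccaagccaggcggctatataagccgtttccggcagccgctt
The match began 85 bases before the start, and this arrangement stood in 15 of 32851 promoter windows (0.0457%). Mlxip fell by 0.71 ± 0.10 on the log2 scale (adjusted p = 2.08e-05) and Arrdc4, a relative of Txnip and also a glucose-responsive gene, by 1.01 ± 0.14 (adjusted p = 1.93e-05). Txn1, the thioredoxin that Txnip binds, rose by 0.96 ± 0.12 (adjusted p = 1.16e-05), from 154 to 189 CPM in CTRL to 252 to 443 CPM in CML 2wk. Arrdc4 was not among the genes of the 15 windows with the element. Mlxip, Arrdc4 and Txn1 were named after their values were seen, and a link between these changes was not tested.

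Gda, a guanine deaminase of purine breakdown, rose where most of the set fell. It was at 28.5 to 56.0 CPM in CTRL (median 41.0) and 85.8 to 242 CPM in CML 2wk (median 130). Every CML 2wk library was above every CTRL library, with a log2 change of 1.79 ± 0.24, or 3.47-fold (adjusted p = 1.79e-05). Sult1a1, a sulfotransferase, was at 4.57 to 6.07 CPM (median 5.41) and 4.00 to 7.02 CPM (median 5.35), overlapped widely and had a log2 change of 0.01 ± 0.15 (adjusted p = 0.94). Tgm2, a transglutaminase, was at 22.9 to 30.5 CPM in CTRL (median 24.7) and 9.52 to 48.0 CPM in CML 2wk (median 14.1). CML 2wk replicate 2 was above and replicate 4 inside the CTRL range, whereas the other 4 libraries were below it, at 9.52 to 16.1 CPM. Its log2 change of −0.34 ± 0.32 was not called (adjusted p = 0.379), and without replicates 2 and 4, the libraries with the stromal transcripts, it was −1.07 (adjusted p = 1.35e-05).

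**Figure D3:**
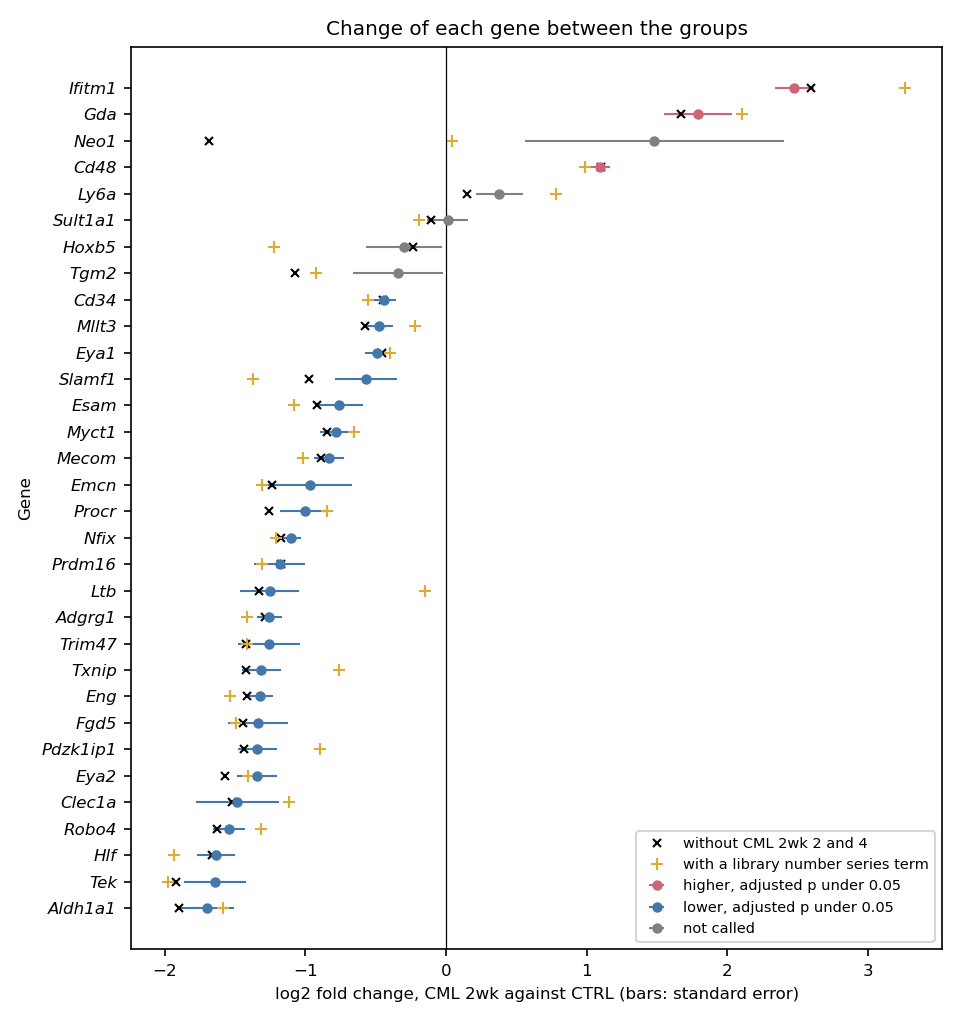
Log2 fold change of CML 2wk against CTRL for the 32 tested genes (filled points, bars give the SE, n = 6 per group), ordered by size and coloured by the call. Crosses give the fit without CML 2wk replicates 2 and 4 and plus signs the fit with the library number series as a term, and the main values run from −1.70 for Aldh1a1 to 2.48 for Ifitm1, with Neo1 the gene that crosses from 1.48 to −1.69.

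The CML 2wk libraries differed in how far the set had moved. The median log2 difference of the 32 genes from the CTRL mean was −1.27, −1.22 and −1.12 in replicates 3, 1 and 6, and −0.89, −0.77 and −0.64 in replicates 2, 5 and 4, while the CTRL libraries lay between −0.16 and 0.14. Of the 24 genes called lower, replicates 2, 4 and 5 had the highest CML 2wk value for 6, 7 and 8 genes, and replicates 1 and 3 for none. The summed level of 10 granulocyte-monocyte progenitor markers was lowest in replicates 5 and 4, at 3512 and 4074 CPM, and 6747 to 9303 CPM in the other 4 CML 2wk libraries, against 2127 to 2835 CPM in CTRL. Replicate 2, also among the less moved libraries, was at 7599 CPM. These libraries were not grouped for any test.

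Relatives, ligands and partners of the members were read from a list of 29 genes, of which 25 were tested. Of these, 13 fell and 7 rose, with a median log2 change of −0.47. Over all genes tested 29.0% were lower and 30.6% higher, so the rises came at near the share over all genes. Around Hlf, the other PAR bZIP genes Dbp and Tef fell by 1.15 ± 0.27 (adjusted p = 0.00177) and 0.77 ± 0.08 (adjusted p = 1.7e-06), and Nfil3, a bZIP repressor that binds the same sites, rose by 0.95 ± 0.16 (adjusted p = 0.000106). Each of these 3 genes separated the groups without overlap. Around Nfix, Nfia fell by 0.98 ± 0.12 (adjusted p = 6.9e-06) and Nfic by 1.54 ± 0.09 (adjusted p = 2.12e-08), while Nfib was called higher (log2 change 4.00 ± 1.27, adjusted p = 0.0138) through CML 2wk replicates 2 and 4 and had a log2 change of −1.81 without them. Around Mllt3, the histone methyltransferase Dot1l fell by 1.06 ± 0.07 (adjusted p = 3.06e-08) and the family member Mllt1 by 0.65 ± 0.08 (adjusted p = 4.85e-06).

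Around Tek, the angiopoietins moved apart. Angpt1, the activating ligand, was at 444 to 571 CPM in CTRL and 204 to 327 CPM in CML 2wk and fell by 0.99 ± 0.12 (adjusted p = 4.91e-06). Angpt2, the context-dependent antagonist, was at 9.50 to 14.3 CPM and 18.7 to 33.3 CPM and rose by 1.02 ± 0.13 (adjusted p = 1.28e-05). Cd2, an adhesion receptor that pairs with Cd48, had 125 counts over the CTRL libraries and 16 in CML 2wk (log2 change −2.27 ± 0.58, adjusted p = 0.00356, and −3.02 without CML 2wk replicate 4). Cd244a, the receptor of Cd48, rose by 0.35 ± 0.09 (adjusted p = 0.0039) and Ltbr, the receptor of Ltb, by 0.53 ± 0.06 (adjusted p = 6.53e-06).

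**Figure D4:**
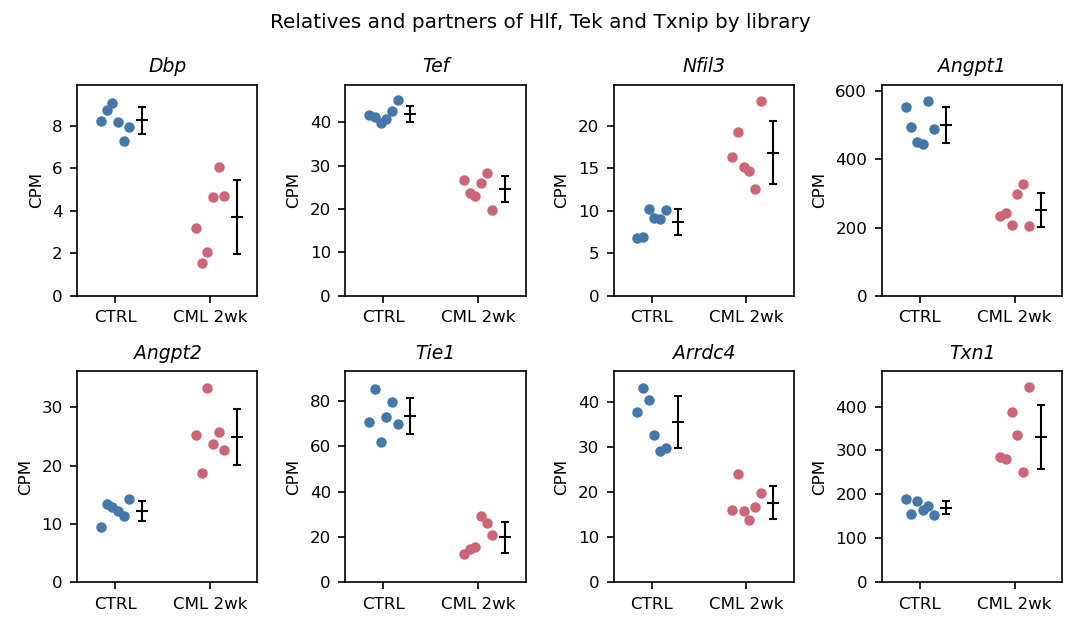
CPM of 8 relatives and partners of Hlf (Dbp, Tef, Nfil3), Tek (Angpt1, Angpt2, Tie1) and Txnip (Arrdc4, Txn1) in each library (points), with the group mean and SD (bar and whiskers, n = 6 per group), each panel on its own linear axis. The CML 2wk points lie above the CTRL points for Nfil3, Angpt2 and Txn1 and below them for the other 5 genes.

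Of 30 further genes associated with stem cells, 20 fell, 2 rose and 8 were not called, with a median log2 change of −0.73. The largest fall over all libraries was in Vwf, the von Willebrand factor of platelet-biased HSC, with a log2 change of −2.66 ± 0.24 (adjusted p = 4.19e-07). The 2 that rose were Vldlr, a lipoprotein receptor, by 0.70 ± 0.13 (adjusted p = 0.000213), and Ghr, the growth hormone receptor, by 1.24 ± 0.38 (adjusted p = 0.0108). Ghr was at 26.6 CPM in CML 2wk replicate 2 and 5.72 to 6.35 CPM in the other 5, and its log2 change was 0.56 without that library. Both lists were chosen with earlier results of these data known, so the second is not separate support for the first. Lower were 24 of 32 members and 20 of 30 further stem cell genes, against 29.0% of all genes tested.

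Markers of the cells into which LSK cells develop also moved with the groups, and their part in the values above was not tested. Their counts are to be read against 30.6% of all genes tested called higher and 29.0% lower. Of 10 granulocyte-monocyte progenitor markers 8 rose and 1 fell, led by Ms4a3 (log2 change 3.30 ± 0.21, adjusted p = 2.77e-08) and Ctsg (2.90 ± 0.21, adjusted p = 8.4e-08), and the most abundant, Mpo, rose by 0.67 ± 0.23 (adjusted p = 0.0195, but 0.0528 without CML 2wk replicate 6). Of 10 mast cell and basophil markers 7 rose and 1, Gata2, which is also a stem cell gene, fell by 1.10 ± 0.15 (adjusted p = 1.64e-05). Their summed level was 319 to 434 CPM in CTRL and 512 to 2742 CPM in CML 2wk, the highest in replicate 2. Of 12 erythroid and megakaryocyte markers 10 of the 11 tested fell, and of 10 multipotent and lymphoid-primed markers 6 fell and 2 rose. Of 18 proliferation markers 6 rose, 7 fell and 5 were not called, near the shares over all genes tested, and their summed level was 4709 to 5615 CPM in CTRL and 3414 to 4360 CPM in CML 2wk, without overlap.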

How the data were processed

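The authors checked, trimmed, aligned and counted paired-end reads of the sorted cells and deposited raw counts per Ensembl gene, 1 library per sample, without normalization. The submitters' processing notes name FastQC 0.11.9, fastp 0.23.2, STAR 2.7.10a, featureCounts 2.0.1, DESeq2 1.36.0 and GRCm39, while the paper's methods name Trim Galore!, HISAT2 and a human build for this step. Annotation release, strand and the handling of multi-mapping reads are not given in the sources used here, so overlapping genes and close relatives (Ifitm1, Ifitm2 and Ifitm3, Ly6a) may share reads. Symbols were matched by identifier (52073 of 56748), and 0 entries named no gene.

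Counts were tested with the quasi-likelihood test of edgeR 4.0.16 in R 4.3.3 (TMM factors, filterByExpr, all 12 libraries, group as the only term), with Benjamini-Hochberg adjustment over all 18438 genes and a threshold of 0.05. CPM were TMM-scaled. Levels between genes were compared per kb of exon, with lengths from GENCODE M21. The SE is the log2 change divided by the root of the F statistic. Promoter windows came from RefSeq GRCm38.p6, which had entries for 25 of the 33 genes, and no position is given on the build of the counts. Alternatives were DESeq2 1.42.0, limma 3.58.1 voom with quality weights, other scalings, filters, a fold threshold, a replicate block, the library number series, and leaving out libraries. No 2 libraries agreed within sampling noise (lowest chi-square per degree of freedom 4.07). Counting limits cover counting error only. The fits were tested on simulated data. Python 3.11.15 with pandas 2.3.3 and matplotlib 3.10.9 made summaries and plots.

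The members and lists were chosen with earlier results of these data known. By rule, the text names all 33 genes, of each other list the 2 largest rises and falls among called genes and the most abundant gene of lists of other cell types, and Kit, of which 4 genes are not reported here. Dbp, Tef, Nfil3, Nfia, Dot1l, Mllt1, Angpt1, Angpt2, Cd244a, Ltbr, Calcrl, Mlxip, Arrdc4, Txn1, Erg, Cdh5, Ptprb, Sox17, Xist, Ddx3y, Uty, Kdm5d and Eif2s3y were named after their values were seen.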

Additional observations from a re-analysis of the deposited data

Results flagged for a closer look

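In 66 groups of 6 values (33 genes in each group of libraries), 3 had a highest library set apart from the others by more than Dixon's 95% critical value, where chance gives about 1 in 20, or 3.3. Neo1 was at 17.0 CPM in CML 2wk replicate 2, against 3.91 CPM in the next library. Ly6a was at 74.1 CPM in CML 2wk replicate 2, against 46.9 CPM in the next. Procr was at 11.9 CPM in CML 2wk replicate 4, against 7.79 CPM in the next.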

How the results depend on the processing

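The 32 genes were refitted under 24 alternatives. Of these genes, 27 kept their direction and their side of the threshold in every alternative other than the fold threshold and the library number series, and 13 did so in all 24. With the library number series as a term, calls over all genes came to 4644 (2176 higher, 2468 lower), over members to 13 (10 lower) and over the other lists to 59, since only 2 libraries then link the groups. Against a fold of 1.5, calls over all genes came to 3323 (1817 higher, 1506 lower), over members to 20 (3 higher, 17 lower) and over the other lists to 65. The library numbers 1 to 6 did not pair the samples (correlations of same-numbered libraries −0.125 to 0.0679), and with the replicate block 27 members were called, 24 of them lower, and 9975 of all genes. When each library was left out in turn, 26 to 28 members were called, 23 to 25 of them lower and 3 to 4 higher, with 10185 to 12007 of all genes and 111 to 128 genes of the other lists. Without CML 2wk replicates 2 and 4, 26 members were lower and 3 higher, and of all genes 6061 were lower and 6069 higher.

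Directions turned for few genes. The log2 change of Neo1 was −0.66 in voom, −0.31 with the replicate block, −1.69 without CML 2wk replicates 2 and 4, and −0.31 to 1.74 with each library left out in turn, the lowest without CML 2wk replicate 2. That of Sult1a1 was −0.00768 in DESeq2, −0.0607 with no filter, −0.19 with the series term, −0.11 without CML 2wk replicates 2 and 4, and −0.0840 to 0.0774 with each library left out. Without replicates 2 and 4, Nfib was at −1.81, Col3a1 at −3.15, Sparc at −0.10 and Pdgfrb at −0.0808. With the series term, Nfib was at −6.13, Col3a1 at −3.94, Sparc at −0.25, Pdgfrb at −0.55, Rag1 at 0.65 and Lyz2 at 0.52. Pecam1 was at 0.0278 with upper-quartile factors and 0.00924 with both libraries numbered 6 left out. Pdgfrb was at −0.0447 with no filter and −0.10 to 0.0921 with each library left out. The cause was not tested. Depth limits Hoxb5, Neo1 and Ramp2, the scarcest members.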

Other observations

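Further genes that the comparison called were read as values only. Among multipotent and lymphoid-primed markers, the tetraspanin Cd53 rose by 1.45 ± 0.11 on the log2 scale (adjusted p = 8.25e-08), while the lymphoid genes Dntt and Rag1 fell by 1.87 ± 0.33 (adjusted p = 0.000184) and 2.01 ± 0.82 (adjusted p = 0.0474). The call of Rag1 was lost without any of 8 single libraries (adjusted p up to 0.103, without CTRL replicate 3), and its log2 change was −2.95 without CML 2wk replicate 4. The platelet chemokines Pf4 and Ppbp fell by 2.99 ± 0.26 (adjusted p = 2.75e-07) and 2.76 ± 0.50 (adjusted p = 0.000235), and the carbonic anhydrase Car2, the most abundant erythroid marker, was at 369 ± 45.3 CPM in CTRL and 122 ± 28.8 CPM in CML 2wk (SD, n = 6 each). The mast cell proteases Tpsb2 and Cma1 rose by 7.53 ± 0.83 (adjusted p = 2.72e-06) and 6.4 ± 0.73 (adjusted p = 3.63e-06), and Cpa3 was at 66.7 ± 20.5 CPM in CTRL and 395 ± 271 CPM in CML 2wk (SD, n = 6 each). Without CML 2wk replicate 2, at 916 CPM, the log2 change of Cpa3 was 2.12 in place of 2.57. The CTRL libraries with most Tpsb2 and Cma1 were replicates 3 and 6, and the log2 changes were 8.81 and 7.24 without CTRL replicate 6, and that of Tpsb2 6.83 without CML 2wk replicate 2. Tpsb2 and Cma1 have close relatives whose reads they may share.

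Of 10 monocyte and macrophage markers 6 rose and none fell, beside 30.6% of all genes tested higher and 29.0% lower. Cd14 was at a log2 change of 2.7 ± 0.52 (adjusted p = 0.000399, and 1.89 without CML 2wk replicates 2 and 4). F13a1 was at 1.87 ± 0.35 (adjusted p = 0.000376), while Lyz2, the most abundant, was not called (−0.27 ± 0.21, adjusted p = 0.299). Of 10 B, T and NK cell markers, Klrb1c rose by 0.62 ± 0.22 (adjusted p = 0.0262, lost without any of 5 single libraries, up to 0.062, and 0.0682 without CML 2wk replicates 2 and 4), Cd8a fell by 1.89 ± 0.58 (adjusted p = 0.0115, and −2.56 without CML 2wk replicate 6), and Cd79b, the most abundant, was not called (adjusted p = 0.185). The granulocyte colony-stimulating factor receptor Csf3r was the 1 granulocyte-monocyte marker that fell, by 0.44 ± 0.09 (adjusted p = 0.000986). Pdgfrb, the most abundant stromal marker, was at 76.8 ± 13 CPM in CTRL and 78.3 ± 18.3 CPM in CML 2wk (SD, n = 6 each) and was not called (adjusted p = 0.871). Among proliferation markers, the S-phase genes Rrm2 and Tyms rose by 0.78 ± 0.10 (adjusted p = 7.36e-06) and 0.53 ± 0.12 (adjusted p = 0.00194), while Mki67 and Top2a fell by 1.38 ± 0.09 (adjusted p = 4.27e-08) and 0.73 ± 0.10 (adjusted p = 2.58e-05).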
